A study of Mus musculus with 2 samples.

Results

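Interferon-induced genes and the genes that carry the interferon signal were examined in small intestinal TCRαβ+CD8αα+ intraepithelial lymphocytes (IELs), T cells that lie within the gut epithelium. The set was given as 49 gene symbols and divided into 26 genes known to be induced mainly by type I interferon, 8 known to be induced mainly by type II interferon, and 15 signaling genes. A gene was measured if a gene probe in both scanner files carried a RefSeq accession that led to its symbol. This was the case for 47 of the 49 genes, out of 20887 genes named in this way, and Mx1 and Mx2 had no such probe. The arrays compared the RNA of IELs sorted as TCRγδ-CD4-CD8β- cells from C57BL/6 mice of 8 to 12 wk, with males and females pooled. One genotype was Rbpjf/f, labelled Control, and the other was CD4-Cre Rbpjf/f, labelled RFF4, so that both carry floxed Rbpj by the labels. Rbpj encodes the DNA-binding partner of Notch, and CD4-Cre deletes floxed DNA in all cells that pass through a CD4-expressing thymic stage, not only in these IELs. The labels name no Cre for the control, whereas the study's text gives a control of Rbpj+/+ mice with CD4-Cre. Each genotype was 1 array, both on the same slide, hybridized with RNA pooled from several isolations. There are therefore no replicates, and no test, standard error or p-value across samples can be given. In bulk RNA, fewer cells of a type and less RNA per cell cannot be told apart.

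Type I interferons bind the Ifnar1 and Ifnar2 receptor chains, and the kinases Jak1 and Tyk2 then activate a complex with Stat2 and Irf9 that binds interferon-stimulated response elements (ISRE) in promoters. Type II interferon, encoded by Ifng and made by activated T cells and natural killer cells, binds Ifngr1 and Ifngr2 and acts through Jak1 and Jak2 on gamma-activated sites (GAS). The induced genes encode antiviral and antimicrobial proteins, and in the gut epithelium interferon responses are part of the defense against enteric viruses and bacteria.

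Promoter sequences are shown first for 7 of the 9 genes that exceeded 2-fold on the array labelled RFF4 over Control, because these genes set the pattern described below. The sequences are RefSeq's of build GRCm38.p6, in the direction of the gene. Capitals mark matches, on either strand, to the ISRE core GAAANNGAA or to the GAS motif TTCNNNGAA, which can overlap each other. A stretch with a match extends up to 45 bases to either side of the match furthest downstream and at most 30 bases past the start of the gene. Where the window held no match, the 100 bases before the start are given. The stretches lie at chr7:140967976-140968075 (plus strand) for Ifitm1, chr7:140955954-140956052 (minus strand) for Ifitm2, chr7:141010715-141010770 (minus strand) for Ifitm3, chr5:114896834-114896933 (plus strand) for Oasl2, chr3:151749881-151749958 (minus strand) for Ifi44, chr13:30749133-30749232 (plus strand) for Irf4, chr16:91546959-91547058 (plus strand) for Ifngr2.
Ifitm1: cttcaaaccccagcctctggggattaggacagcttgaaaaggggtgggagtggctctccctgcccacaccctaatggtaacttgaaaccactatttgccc
Ifitm2: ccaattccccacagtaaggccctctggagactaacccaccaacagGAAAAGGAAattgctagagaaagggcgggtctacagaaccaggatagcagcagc
Ifitm3: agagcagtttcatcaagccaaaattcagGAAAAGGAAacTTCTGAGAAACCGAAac
Oasl2: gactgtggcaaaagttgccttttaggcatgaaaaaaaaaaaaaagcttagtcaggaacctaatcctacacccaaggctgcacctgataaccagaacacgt
Ifi44: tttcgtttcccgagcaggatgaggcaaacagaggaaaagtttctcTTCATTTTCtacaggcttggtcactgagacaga
Irf4: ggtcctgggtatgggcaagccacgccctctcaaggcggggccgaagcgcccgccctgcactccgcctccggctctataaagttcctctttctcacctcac
Ifngr2: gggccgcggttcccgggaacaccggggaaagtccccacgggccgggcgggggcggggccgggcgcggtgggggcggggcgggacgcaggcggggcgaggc
The stretches that follow belong to genes with some of the lowest differences in the set. They lie at chr4:156200831-156200929 (minus strand) for Isg15, chr12:26456518-26456616 (minus strand) for Rsad2, chr7:141266425-141266524 (minus strand) for Irf7, chr10:128270248-128270330 (plus strand) for Stat2.
Isg15: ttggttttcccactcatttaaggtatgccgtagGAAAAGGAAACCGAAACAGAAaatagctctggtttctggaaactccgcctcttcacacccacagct
Rsad2: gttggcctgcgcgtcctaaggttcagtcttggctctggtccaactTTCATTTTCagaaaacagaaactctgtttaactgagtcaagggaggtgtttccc
Irf7: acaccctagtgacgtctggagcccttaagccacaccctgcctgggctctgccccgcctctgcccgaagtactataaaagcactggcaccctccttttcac
Stat2: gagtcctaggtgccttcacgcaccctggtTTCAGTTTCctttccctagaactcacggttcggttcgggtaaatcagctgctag
Isg15 carries 3 overlapping ISRE core matches, and Ifitm3 carries 2 just past the start, one of which shares bases with a GAS match. No match was present in the windows of Ifitm1, Oasl2, Irf4, Ifngr2 or Irf7, which says only that these letters are not in the 300 bases searched. Usp18 and Gbp6, which were also more than 2-fold higher, and Gbp4 are not in the promoter table.

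Across the set, 40 member genes had a window from 250 bases before to 50 bases after a start, and 21 of them (52.5%) held the ISRE core. The share over all 26742 genes in the table was 9.74%, or 8.53% of the 32544 windows, against 44.7% of the 47 windows of members. By role, the core was found in 13 of 20 type I induced genes, 5 of 5 type II induced genes and 3 of 15 signaling genes. The GAS motif was found in 14 of 40 member genes (35%) beside 9.6% of all genes, or in 29.8% of member windows beside 8.33% of all windows. Genes with a match lay at both ends of the differences between the arrays. Among those with an ISRE core, Ifitm3, Ifitm2 and Ifi44 were more than 2-fold higher, whereas Stat2, Rsad2 and Isg15 had some of the lowest values. A match is a description of the letters and not of binding.

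The arrays were read as follows. The log2 signal is the scanner's background-subtracted signal minus the array's own 75th percentile over gene probes, so that 0 is the level of that percentile, and a difference is the array labelled RFF4 minus the Control array. Each gene is represented by its brightest probe. Where a gene was well above background on 1 array only, the difference is a bound against the lowest signal well above background on the other array, or the gene's own signal there if that was higher. Over probes with 10 spots, the technical SD of a difference was 0.158, and it was 0.236 for probes below the 75th percentile and 0.073 for brighter ones. This covers spot error only. A fold over 2 (log2 of 1) was used as a cutoff of size. On the Control array 57.2% of gene spots were well above background, and on the other 49.7%, with a median signal of 9.47 and 5.78 times background and 0 saturated spots on either. Rbpj itself was not lower on the array labelled RFF4. Its brighter probe went from 1.96 on the Control array to 2.28, and the other probe from -1.44 to -0.62. Whether these probes lie in the deleted exons was not tested, so that the genotype is given here only as labelled.

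Of the 47 genes with a probe, 45 were well above background on both arrays, Ifi44 was so only on the array labelled RFF4, and Oas2 on neither. Among the 46 genes with a difference, 9 had more than 2-fold more signal on the array labelled RFF4, or 19.6% of them, where 12.3% of the 13513 genes with a difference were. None (0) was more than 2-fold lower, where 5.05% of all genes were. More than 4-fold higher were 2 genes, Ifitm1 and Oasl2, or 4.35%, beside 1.85% of all genes, and 0 were more than 4-fold lower, beside 0.585% of all genes. By any amount 26 genes were higher and 20 lower, so that 56.5% were higher beside 48.9% of all genes. The median difference was 0.092 for the set and -0.015 for all genes. In 18 of 46 genes the difference was smaller than 2 times the technical SD over all probes, which is 0.315, as it was in 5551 of all 13513 genes. The separate SDs of dim and brighter probes were not used for this count.

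These directions depend on the scaling. When the 8 spike-in controls were made equal between the arrays, every difference was lower by 1.125, the median of all genes moved from -0.015 to -1.10, and only 8 members were higher while 38 were lower. Those 8 were all among the 9 genes named as more than 2-fold higher, and Usp18, at -0.006, was the other. More than 2-fold lower on this scale were 23 of the 46 members, beside 57.0% of all genes. More than 2-fold higher were 2 members, beside 1.39% of all genes. Under the 9 other ways of processing the files, 38 of the 46 members kept their sign. The 8 that did not (Ifit1, Oasl1, Trim25, Irgm1, Iigp1, Irf2, Irf3 and Ifngr1) differed between the arrays by at most 0.21. All directions below are on the scale of the 75th percentile.

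**Figure D1:**
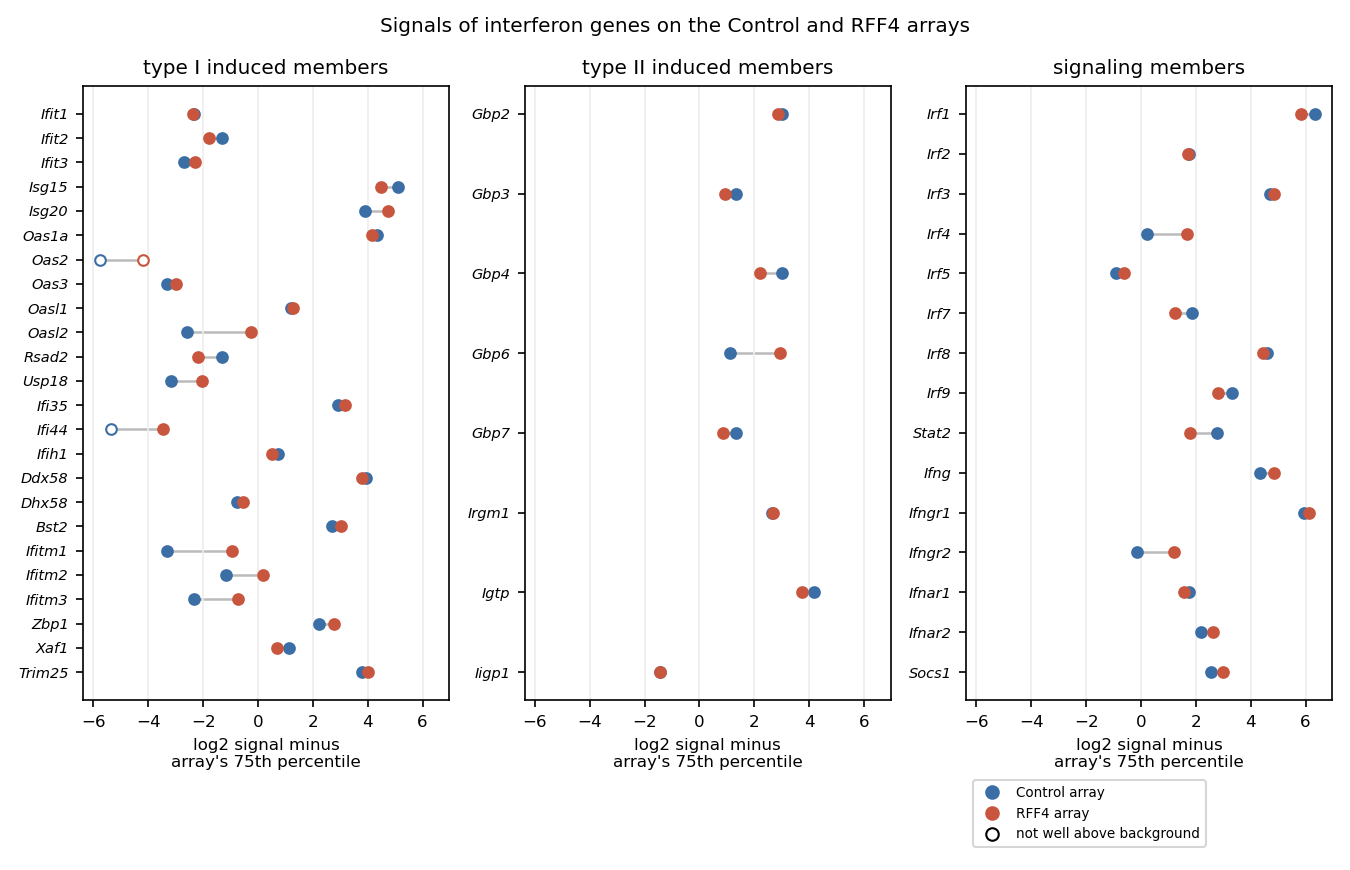
Log2 signals of the 47 measured interferon genes, relative to each array's 75th percentile (x axis), on the Control array (blue) and the array labelled RFF4 (red), 1 array each, with open points for signals not well above background. The Ifitm genes, Oasl2, Ifi44, Gbp6, Irf4 and Ifngr2 have the red point clearly to the right, and most other pairs lie close together.

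The type I induced genes did not move as a block. Of the 23 with a difference, 15 were higher on the array labelled RFF4 and 8 lower, with a median of 0.26 and a range from -0.87 to 2.36, and 6 were more than 2-fold higher, or 26.1% beside 12.3% of all genes. The Ifitm genes, which encode membrane proteins that hinder the entry of viruses into cells, were all higher. Ifitm1 had a log2 signal of -3.30 on the Control array and -0.94 on the array labelled RFF4, a 5.13-fold difference. Ifitm2 went from -1.17 to 0.18, or 2.54-fold higher. Ifitm3, read from 9 spots on the Control array and 10 on the other, went from -2.34 to -0.74, or 3.03-fold higher. With equalized spike-in controls the 3 genes stayed higher, by 1.24, 0.22 and 0.47 on the log2 scale. These genes are close copies of each other, and how far each probe also binds the others was not tested.

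Oasl2, a relative of the oligoadenylate synthetases, had the other difference past 4-fold. Its signal went from -2.58 on the Control array to -0.25, or 5.02-fold higher. Ifi44 was not well above background on the Control array, at -5.36, and stood at -3.47 on the array labelled RFF4, so that it was at least 3.72-fold higher. Usp18, a protease that removes Isg15 from proteins and dampens the type I receptor, went from -3.17 to -2.05, which is 2.17-fold higher. Its difference of 1.12 was 0.94 with scaling to the median and 0.98 after normexp background correction, and thus under the 2-fold cutoff in both.

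Oas1a and Oas3, synthetases that make the activator of the antiviral nuclease RNase L, and Oasl1 were within 2-fold. Oas1a stood at 4.32 and 4.14, and its other probe differed by -0.16. Oas3 went from -3.31 to -2.99 and Oasl1 from 1.22 to 1.27. Oas2 was read at -5.76 and -4.21, not well above background on either array, and no fold is given. The probes of this family may bind related genes.

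Among the other type I induced genes, Rsad2 and Isg15 were lower and Ifit1 was nearly equal. Rsad2, which encodes the antiviral enzyme viperin, went from -1.31 on the Control array to -2.18, or 1.82-fold lower, but its difference was only -0.22 after normexp background correction. Isg15, a ubiquitin-like protein attached to other proteins, went from 5.11 to 4.49, or 1.54-fold lower, and its other probe was lower by a similar amount, with a difference of -0.70. Ifit1, an inhibitor of the translation of foreign RNA, had equal signals of -2.33 and -2.35. Its relatives had opposite signs, with Ifit2 at -1.32 and -1.77 and Ifit3 at -2.69 and -2.29. Both differences were smaller than 2 times the technical SD of 0.236 for dim probes. The Ifit genes are also near copies of each other. Thus Isg15 and Rsad2 had the sign opposite to that of the Ifitm genes, Oasl2 and Ifi44.

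The sensors of foreign RNA and DNA showed small differences. Ddx58, which encodes RIG-I, stood at 3.95 and 3.78, with an other probe at -0.62 in difference. The signal of Ifih1, another cytosolic RNA sensor, was 0.74 and 0.52. Dhx58, a regulator of both, was at -0.75 and -0.56. Trim25, the ubiquitin ligase of RIG-I, was at 3.78 and 3.997. None of these 4 was past 1.2-fold by its brightest probe. Zbp1, a sensor of nucleic acids that can start cell death, went from 2.21 to 2.76, whereas its other probe had a difference of -0.16, so that its direction depends on the probe.

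The last type I induced genes were also within 2-fold. Isg20, a nuclease that degrades RNA, went from 3.89 to 4.73, or 1.79-fold higher, and its other probe gave a difference of 0.86. Bst2, which tethers budding viruses to the cell, was at 2.71 and 3.01. The signal of Ifi35 was 2.93 and 3.19. Xaf1, a partner of the apoptosis inhibitor XIAP, was at 1.15 on the Control array and 0.70 on the other.

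The type II induced genes were mostly lower or equal. Of the 8 genes, 5 were lower and 3 higher, with a median of -0.28 beside the -0.015 of all genes, and 1 was more than 2-fold higher, or 12.5% beside 12.3% of all genes. Most of the guanylate-binding proteins, GTPases that attack the vacuoles of intracellular microbes, were lower on the array labelled RFF4. Gbp4 went from 3.02 to 2.21, or 1.75-fold lower, Gbp7 from 1.31 to 0.86, and Gbp3 from 1.34 to 0.93. Gbp2 was at 3.003 and 2.84. The exception was Gbp6, whose brighter probe went from 1.13 to 2.92, or 3.47-fold higher. Its other probe went from 0.58 to -0.06, a difference of -0.64 in the opposite direction. The mean of both probes gave 0.57, so that the call for Gbp6 rests on 1 probe, and Gbp genes are close relatives whose RNA a probe may share.

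The immunity-related GTPases, which act on the same vacuoles, were equal or slightly lower. Igtp, read from 10 spots, went from 4.16 to 3.74, or 1.34-fold lower. Irgm1 was at 2.64 and 2.67, and Iigp1 at -1.43 on both arrays. Gbp2, Irgm1 and Iigp1 differed by less than 2 times the technical SD over all probes. Gbp2, a bright probe, differed by more than 2 times the 0.073 of brighter probes.

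**Figure D2:**
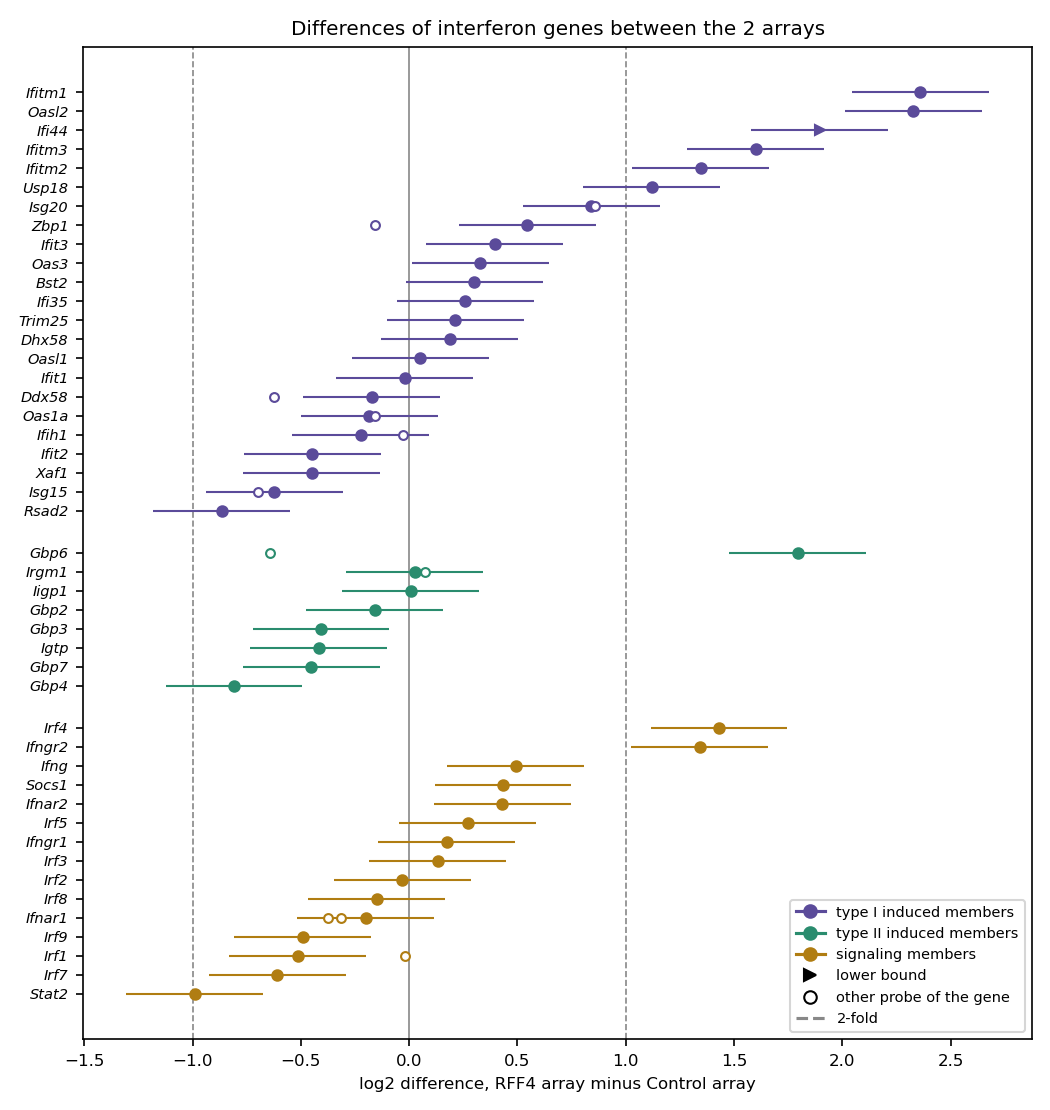
Log2 differences between the arrays (x axis, array labelled RFF4 minus Control) for the 46 members with a difference, ordered within each list, with bars of 2 times the technical SD of 0.158 over all probes, dim and bright, and open points for other probes of the same gene (a bound for Ifih1). The highest values reach 2.36 (Ifitm1) and the lowest -0.99 (Stat2), and the other probe of Gbp6 lies on the opposite side of 0; with equalized spike-in controls the values would shift by -1.125.

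Among the signaling genes, the ligand and 3 of the 4 receptor chains were within 2-fold between the arrays, and Ifngr2 was the exception. Ifng, the type II ligand, went from 4.34 on the Control array to 4.83, or 1.41-fold higher. Ifngr1, the chain that binds it, stood at 5.94 and 6.11. Ifngr2, the second chain of this receptor, went from -0.13 to 1.21, or 2.53-fold higher. Of the chains of the type I receptor, Ifnar1 was at 1.75 and 1.55, and Ifnar2 went from 2.20 to 2.63, or 1.35-fold higher. The other 2 probes of Ifnar1 gave differences of -0.37 and -0.31.

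The transcription factors differed among themselves. Irf4, which is induced by T cell receptor signals and shapes effector T cells, went from 0.24 to 1.67, or 2.70-fold higher. Stat2, a component of the type I complex, had the lowest difference of the set, with 2.78 on the Control array and 1.79 on the other, or 1.99-fold lower. It passed 2-fold in 3 of the 9 other ways of processing, with a lowest difference of -1.16. Irf9, which brings the same complex to DNA, went from 3.31 to 2.81, or 1.41-fold lower. Stat2 and Irf9 were thus both lower. Irf7, which turns on type I interferon genes, went from 1.85 to 1.24, or 1.52-fold lower.

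Irf1, an activator that is itself induced by type II interferon, was at 6.35 on the Control array and 5.84 on the other, while its dim other probe differed by -0.02. Irf2, which opposes Irf1, was at 1.75 and 1.71. Irf3, the first factor to act on interferon genes after infection, was at 4.71 and 4.84. These factors and the next ones were all within 1.5-fold. Irf5 stood at -0.89 and -0.62, and Irf8 at 4.61 and 4.46. Socs1, an inhibitor of the Janus kinases that limits both pathways, was 1.35-fold higher than its 2.57 on the Control array. Of the 15 signaling genes, 8 were higher and 7 lower, or 53.3% higher beside 48.9% of all genes. The 2 that were more than 2-fold higher are 13.3%, near the 12.3% of all genes. Their median was 0.13, but -0.04 with scaling to the median and -0.11 after normexp background correction.

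Over all genes, the differences varied with the signal. Among genes that both arrays placed well above background, the dimmest of 8 bins of signal had a median difference of 0.48, and 27.0% of its genes were more than 2-fold higher. In the next bin, the median was 0.11 and 19.6% were more than 2-fold higher. This bin held 9 members, of which 4 (Ifitm1, Ifitm3, Oasl2 and Usp18) were more than 2-fold higher, with a member median of 0.40. Ifitm2, Irf4, Ifngr2 and Gbp6 lie in brighter bins, where the median of all genes was between -0.15 and -0.05. The part of signal in these differences was not tested.

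**Figure D3:**
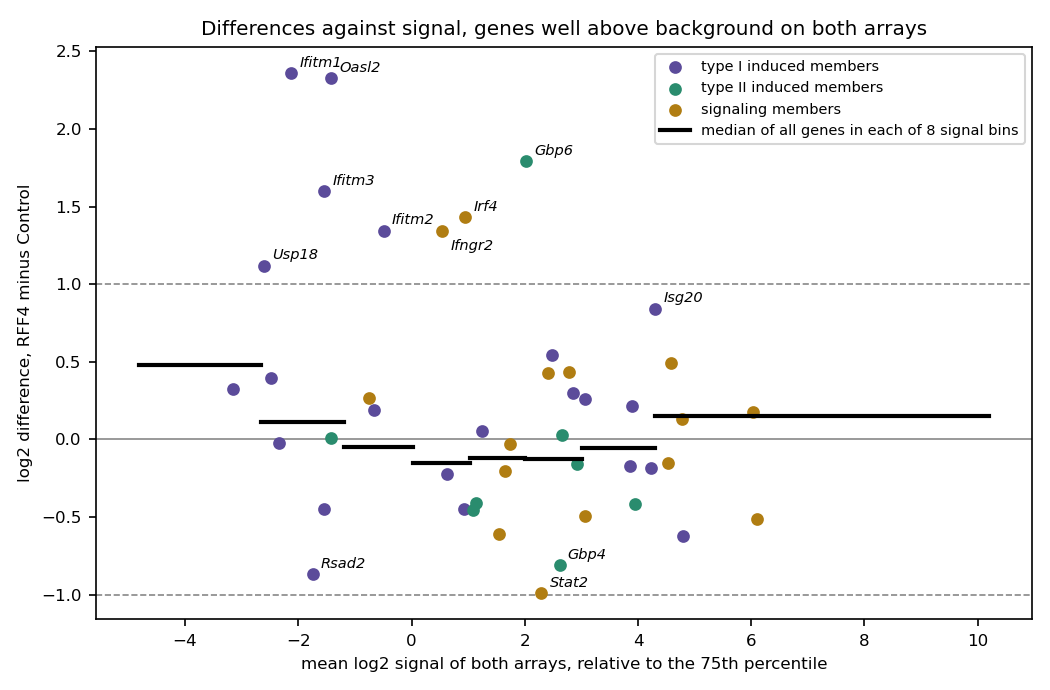
Log2 differences (y axis, array labelled RFF4 minus Control) against the mean log2 signal of both arrays (x axis) for the 45 members well above background on both, with black lines at the median of all genes in 8 bins of signal. Members past 2-fold (dashed lines) have a mean signal of 2.02 or less, and the black line lies at 0.48 in the dimmest bin; with equalized spike-in controls points and lines would shift by -1.125.

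The other genes of the pathway were read from a list of further induced genes, a list of further signaling genes and the interferon ligands. Of 51 further induced genes, 43 had a difference, 20 higher and 23 lower, with a median of -0.009. Of these, 4 (9.3%) were more than 2-fold higher, beside 12.3% of all genes, and 1 (2.33%) more than 2-fold lower, beside 5.05%, so that neither share was above that of all genes. Ly6a, the Sca-1 surface antigen, went from -3.07 on the Control array to 0.27, or 10.1-fold higher. Ms4a4b, a membrane protein of T cells, went from 0.98 to 3.22, or 4.72-fold higher. Phf11d went from -0.25 to 1.89, or 4.40-fold higher. Cxcl9, a chemokine induced by type II interferon, was dim, with -4.49 and -3.41, or 2.12-fold higher. Gbp8, in turn, went from 2.07 to 0.81, or 2.39-fold lower.

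Of 26 further signaling genes, 24 had a difference, 11 higher and 13 lower, with a median of -0.046. More than 2-fold higher were 2 (8.33%), beside 12.3% of all genes, and 0 were more than 2-fold lower, beside 5.05%. Ifnlr1, the chain of the type III interferon receptor that is used by epithelial cells, went from -3.53 to -2.33, or 2.30-fold higher. The receptor kinases were equal or lower. Jak1 stood at 5.45 and 5.47. Jak2 went from 3.84 to 3.05, or 1.73-fold lower, and Tyk2 from 2.50 to 2.05.

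Of the 18 interferon ligand genes listed besides Ifng, 14 had a probe and 6 were well above background on neither array, among them Ifnb1. Of the 8 with a difference, 7 were higher and 1 lower, and 2 (25%) were more than 2-fold higher, beside 12.3% of all genes. These genes were dim, and their median of 0.49 was close to the 0.48 of the dimmest bin of all genes, of which 27.0% were more than 2-fold higher. Ifna7 was read at -7.60 on the Control array, not well above background there, and at -1.94 on the other, so that it was at least 11.9-fold higher. Ifna11 went from -3.59 to -1.92, or 3.18-fold higher. The Ifna genes have a single exon and are close copies of each other, so that the gene behind such a signal is uncertain.

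Lists of marker genes for the sorted T cells and for other cell types were also read. The T cell genes that mark the sorted cells were bright and within 2-fold between the arrays, with a median difference of 0.29 over 7 of 8 listed genes. All 15 epithelial markers were higher on the array labelled RFF4, by a median of 1.61, 13 of them by more than 2-fold, and the log2 of their summed level was 7.98 on the Control array and 9.64 on the other. Of the 14 macrophage and dendritic cell markers listed, 13 had a probe and 11 a difference, and these 11 were higher, by a median of 1.45 and 9 by more than 2-fold, with log2 sums of 6.08 and 6.58 that are set mainly by Itgax (5.52 and 5.73) and Itgam (4.32 and 5.24), where the median level of the list was -4.68 and -1.94. Csf1r, the receptor that defines macrophages, went from 0.01 to 1.46, and Adgre1, their surface marker F4/80, from -4.76 to -3.72, while Mrc1 was well above background on neither array and Fcgr1 only on the Control array. The median was 0.71 for 6 plasmacytoid dendritic markers, with log2 sums of 7.77 and 8.16 set mainly by Siglech (7.52 and 7.93). Siglech was about as bright as the T cell gene Cd3d (7.42 and 7.955), while the median level of this list was 0.44 and 1.06. Whether the sorted T cells themselves gave the Siglech signal was not tested. The median was 1.74 for 4 of 7 B and plasma cell markers, with log2 sums of 4.70 and 5.86, and 1.48 for 4 of 5 neutrophil markers, with 0.31 and 1.42. Within these 3 lists, Tcf4 (-0.35), Cd79b (-0.26) and Mpo (-0.51) had differences below 0. Cd79a and Pax5 of the B cell list were well above background on neither array. Cd4, which was gated out, was well above background on both at 1.67 and 1.80, and Cd8b1 only on the Control array. With equalized spike-in controls, the medians were 0.48 for the epithelial and 0.19 for the macrophage and dendritic markers, but -0.41 for the plasmacytoid dendritic markers and -0.84 for the sorted T cell genes, whose median was also below 0 with quantile normalization (-0.25) and cyclic loess (-0.07). The part of these cells in the values of Ifitm1, Ifitm2, Ifitm3, Oasl2, Ifi44, Irf4, Ifngr2 and Ifnlr1 was not tested.

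**Figure D4:**
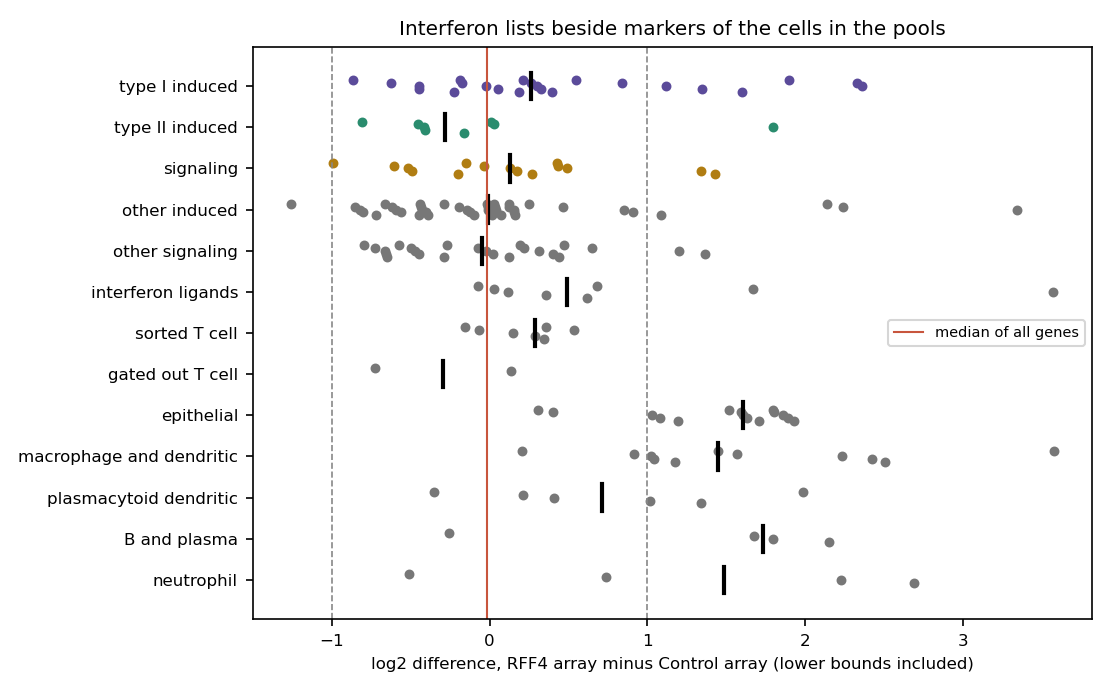
Log2 differences (x axis, array labelled RFF4 minus Control) of single genes in the interferon lists and in lists of cell type markers, with black bars at list medians, a red line at the median of all genes (-0.015) and dashed lines at 2-fold. The epithelial markers center at 1.61, the type I induced, signaling and type II induced members at 0.26, 0.13 and -0.28; with equalized spike-in controls the values would shift by -1.125.

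The choice of probe mattered for few members. The set was covered by 60 probes, and 12 genes had more than 1. Of 10 other probes well above background on both arrays, 8 were within 0.5 of the brightest probe of the gene, and 2, those of Gbp6 and Zbp1, had the opposite sign. The other probe of Ifih1 gave only a bound. The ways of processing moved some members more. Of the 9 genes more than 2-fold higher, 7 stayed past 2-fold in all of the alternatives other than the spike-in scaling that gave a value, the exceptions being Usp18 and Gbp6. Ifitm1 ranged from 1.62 to 2.40 and Oasl2 from 1.72 to 2.41 over these. Ifi44 was at 1.11 after normexp background correction, and had no value where both arrays had to be well above background.

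**Figure D5:**
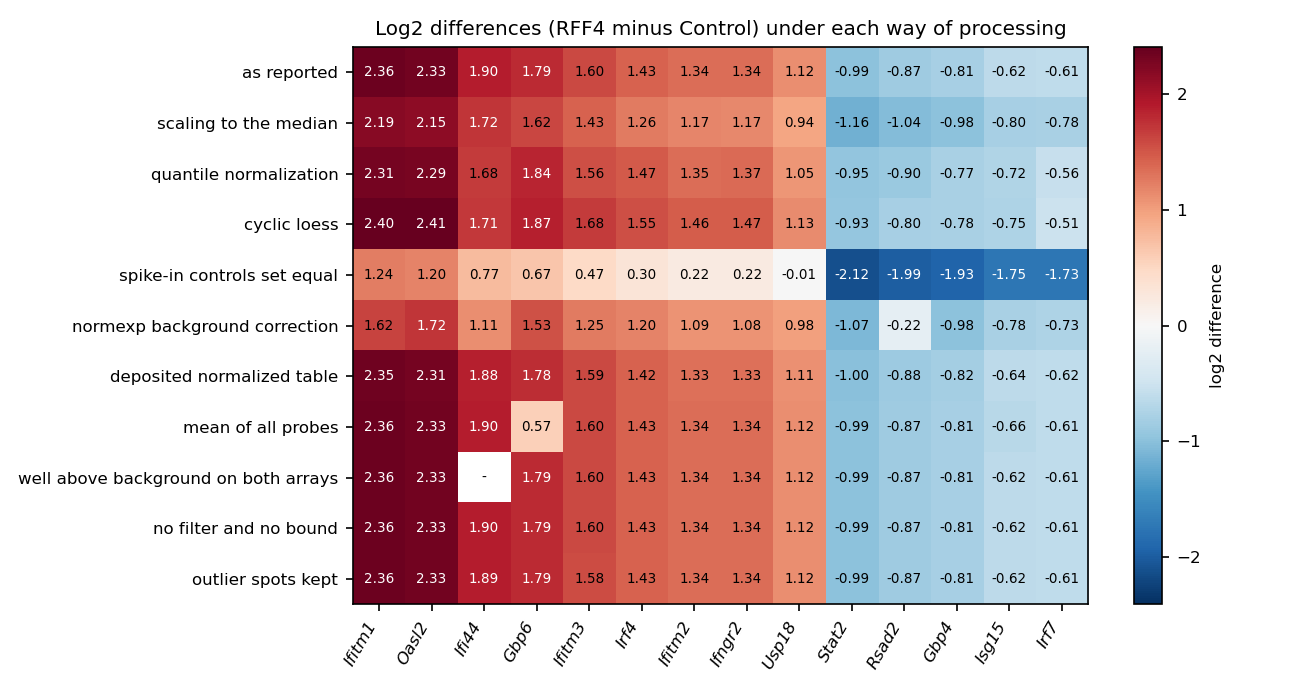
Log2 differences (colors and numbers, array labelled RFF4 minus Control) of the 9 members more than 2-fold higher and the 5 lowest members (columns) under each way of processing (lines of the grid), with a dash where a gene gave no value. Ifitm1 and Oasl2 stay above 1 in every line, Usp18 falls to -0.006 with equalized spike-in controls, and Gbp6 falls to 0.57 with the mean of its probes.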

How the data were processed

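RNA of 2 pools of IELs, 1 for each genotype, was measured on 2 Agilent arrays of 1 color. The authors deposited the output of Agilent Feature Extraction 10.7.1.1, which per the file headers holds each spot's intensity on a linear scale with background subtracted and no normalization between arrays. The authors also deposited a table of normalized values, a score that holds log2 values centered per probe in 55821 lines used, 924 lines that repeat a probe on another scale and 6231 lines with no value. Its columns mirror each other within 0.001, and its settings are not given in the sources used here beyond the use of GeneSpring.

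Outlier spots were left out, and log2 signals were averaged over the spots of a probe. The 75th percentile of all gene probe spots was then subtracted, which was 8.99 for Control and 7.82 for RFF4. A probe counted as well above background when this held for 50% or more of its spots. Of 55679 gene probes, 29150 carry a RefSeq accession, and 27509 were resolved to symbols of GRCm38.p6. Subtracting the percentile makes differences relative, so that a change shared by most genes cannot be seen, and dim signals depend on the background subtraction. With 1 array per genotype, the number of arrays limits the precision. The number of columns of no sample that were used is 0.

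The members, gene lists and motifs were chosen with earlier results of these data known. Every member is accounted for, and of the other genes those past 2-fold and Jak1, Jak2 and Tyk2 are named, with markers as list counts and the defining ones named. Values of a few genes under this rule are not reported here. A few probes named for a disagreement were chosen after their values were seen. The scaling was replaced by the array median, by cyclic loess with a span of 0.7, by quantiles and by equalized spike-in controls. Other alternatives were the deposited table, normexp with an offset of 50, the mean of all probes, a stricter filter for genes above background on each array, no filter or bound at all, and the use of outlier spots. The steps were tested on simulated data. Promoter windows and symbols were RefSeq's. The normalizations ran in limma 3.58.1 under R 4.3.3, and the rest in Python 3.11.15 (pandas 2.3.3, numpy 2.4.6, matplotlib 3.10.9).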

Additional observations from a re-analysis of the deposited data

How the results depend on the processing

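The median difference was 0.26 for type I induced, -0.28 for type II induced and 0.13 for signaling genes. With scaling to the median, which shifts the median of all genes by -0.17, the medians were 0.085, -0.46 and -0.043, and 2 members (Stat2 and Rsad2) were more than 2-fold lower, beside 7.98% of all genes. With equalized spike-in controls, which shift the median of all genes by -1.09, they were -0.865, -1.41 and -0.994, with Usp18 at -0.006. On that scale 2 members were more than 2-fold higher, beside 1.39% of all genes, and 23 more than 2-fold lower, beside 57.0%. After normexp background correction the signaling median was -0.11, and 1 member (Stat2) was more than 2-fold lower, beside 3.66% of all genes. In the deposited table it was also 1, beside 5.22%. Without a filter or bounds the median of all genes shifts by 0.27. Relative to the median of all genes, which takes out a shift shared by all genes, the type I induced median was 0.275 and ranged from 0.029 to 0.305 over the 10 alternatives, the type II induced median was -0.27 and ranged from -0.535 to -0.20, and the signaling median was 0.146 and ranged from -0.121 to 0.146. The values 0.029, -0.535 and -0.121 came from the setting without a filter or bounds. There the list medians were 0.28, -0.28 and 0.13, almost unmoved, and the median of all genes was 0.252 over 20887 genes. The count of members more than 2-fold higher was 8 to 10 in the 9 alternatives other than the spike-in scaling. The share of all genes moved more than this count. Without a filter or bounds, 10 of 47 members were more than 2-fold higher, beside 30.03% of all genes. The share of members was thus below that of all genes in this setting, and not above it as in the main reading. In the remaining alternatives of these 9, the share of all genes lay between 9.26% and 12.33%. The cause of these changes was not tested beyond the stated shifts. No array could be left out, since each genotype has 1. No paired analysis was possible because each group has 1 array and no test was run. Adding probes by a gene name in the file was not run, because the scanner files used here hold no gene name column. Because of dim signals, Oas2 gave no difference and Ifi44 only a bound.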
